A study of Mus musculus with 72 samples.

Results

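Germ-free (GF) male mice without the clock gene Bmal1 in the liver were compared with GF controls at zeitgeber time 2 (ZT2; lights come on at ZT0). The comparison rests on 6 of the 72 liver RNA-seq libraries of the study, 3 from GF LKO mice and 3 from GF WT mice, taken by their labels. LKO mice are Bmal1 fl/fl and carry Albumin-Cre, whose promoter is active in hepatocytes. Whether other liver cells keep the gene was not tested. WT mice are Bmal1 fl/fl without Cre, so every group carries the floxed allele. All mice were male and C57BL/6 by their labels (C57BL/6J in the study's methods), ate autoclaved chow freely and were kept in light and dark phases of equal length, the GF mice in flexible film isolators. The 6 libraries of specific-pathogen-free (SPF) WT and LKO mice at ZT2 and the 30 GF libraries of the other 5 ZT were used to show where GF mice at ZT2 differ. A separate library was made from bulk liver for each mouse, so p-values measure the spread between mice. For the comparison at ZT2 that spread was estimated from all 12 libraries of ZT2, GF and SPF together.

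The GF WT libraries held 18341726 to 20048880 counts assigned to genes, the GF LKO libraries 18939604 to 19376734, and the SPF libraries of ZT2 18345643 to 20237288. Of 55573 genes listed, 31350 had no count in the 6 GF libraries. The correlation of log2 levels across genes was 0.978 to 0.989 between WT libraries and 0.990 to 0.993 between LKO libraries, and no pair held identical values. Hepatocyte markers were present in every library, with Alb, the gene of serum albumin, at 8.48% to 11.3% of all counts in GF WT and 3.12% to 3.92% in GF LKO. Levels are given as CPM, counts scaled to one common library size after TMM (trimmed mean of M values). Differences are log2 fold changes, LKO minus WT, with their standard error (SE), folds are those of the same fit, and a gene was called at an adjusted p under 0.05 (edgeR's quasi-likelihood F test, with p-values adjusted by Benjamini-Hochberg over all genes tested).

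At ZT2, 572 of 13596 genes tested were called between GF LKO and GF WT, 4.21% of them. Of these, 311 (2.29%) were higher and 261 (1.92%) lower in LKO, and 303 (2.23%) differed by at least 1 on the log2 scale, 168 higher and 135 lower. An unadjusted p under 0.05 was found for 2104 genes (15.5%), and in 2586 (19%) the 3 LKO libraries lay all above or all below the 3 WT libraries. A lack of overlap given below for called genes describes the values behind the call and is no further test. The median log2 difference over all genes was -0.0098. With 4.21% of all genes called, a short gene list may hold no call without differing from the rest. Of the 572 genes, 226 were called under each of 13 other settings of the analysis, 138 higher and 88 lower. Unless a library or setting that ends a call is named, a gene described below as having risen or fallen is one of these 226. One of the 13 settings fitted all 72 libraries. Those include the SPF LKO libraries of ZT14, with the clock gene Npas2 at 0.219 to 25 CPM, and of ZT18 (1.82 to 36.7 CPM). The part of these libraries in calls lost in that setting was not tested. In bulk liver, fewer cells of a type and less RNA per cell cannot be told apart.

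The liver clock is a loop of transcription factors. BMAL1, made from Bmal1 (listed as Arntl), pairs with CLOCK or NPAS2 and switches on genes through the E-box, among them the Per and Cry genes, whose proteins block the pair, and Nr1d1 and Nr1d2, which encode the repressors REV-ERBα and REV-ERBβ. The REV-ERBs and activators such as RORα compete for one DNA element and so set the level of Arntl, Npas2 and Cry1. DBP, TEF and HLF carry the rhythm on to many metabolic genes through the D-box. In mouse liver, Arntl and Npas2 RNA is high around dawn and Dbp and Per RNA in the later day.

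The promoter sequences of the clock genes called here that hold one of these elements within 250 bases before and 50 bases after the gene start are shown so that the letters can be seen beside the values. A match is a description, and binding was not measured. The sequences are those of RefSeq on GRCm38.p6, written 5′ to 3′ on the gene's own strand, with the matching letters in capitals. Each of the 3 elements was searched on both strands. Tef and Arntl have 2 promoter entries each, and the first entry with a match is shown. The shares per promoter given next are therefore not a like measure for these genes. The E-box (CACGTG) was in 7.15% of 32851 mouse promoters of this length, the D-box (TTATGTAA or TTACGTAA) in 1.06% and the ROR and REV-ERB element (TAGGTCA) in 2.61%. No match lay in these windows of Nr1d1, Nr1d2, Cry2 and Npas2, which says only that these letters are not there. Per2 and Bhlhe40 were not searched. The lines are for Cry1 (chr10:85185005-85185304, minus strand, E-box), Tef (chr15:81802423-81802722, plus strand, E-box), Arntl (chr7:113207261-113207560, plus strand, ROR and REV-ERB element), Per3 (chr4:151044616-151044915, minus strand, 2 D-boxes) and Bhlhe41 (chr6:145865371-145865670, minus strand, E-box).
Cry1: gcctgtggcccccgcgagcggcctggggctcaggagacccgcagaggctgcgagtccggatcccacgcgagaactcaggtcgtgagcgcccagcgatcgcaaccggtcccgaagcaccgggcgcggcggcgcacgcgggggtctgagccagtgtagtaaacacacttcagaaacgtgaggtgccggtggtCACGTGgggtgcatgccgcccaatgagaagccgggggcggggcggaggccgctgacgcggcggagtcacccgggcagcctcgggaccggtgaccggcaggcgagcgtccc
Tef: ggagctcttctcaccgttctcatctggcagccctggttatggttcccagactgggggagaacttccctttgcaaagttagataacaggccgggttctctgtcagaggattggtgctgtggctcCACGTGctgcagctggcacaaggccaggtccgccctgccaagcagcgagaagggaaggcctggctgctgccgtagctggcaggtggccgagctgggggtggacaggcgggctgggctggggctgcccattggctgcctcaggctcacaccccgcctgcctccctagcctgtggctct
Arntl: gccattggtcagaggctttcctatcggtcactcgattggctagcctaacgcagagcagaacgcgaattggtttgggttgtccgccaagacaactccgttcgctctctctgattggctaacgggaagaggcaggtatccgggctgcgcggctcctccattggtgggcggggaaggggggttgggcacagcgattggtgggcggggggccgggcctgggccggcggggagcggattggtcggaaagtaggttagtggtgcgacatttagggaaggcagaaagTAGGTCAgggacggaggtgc
Per3: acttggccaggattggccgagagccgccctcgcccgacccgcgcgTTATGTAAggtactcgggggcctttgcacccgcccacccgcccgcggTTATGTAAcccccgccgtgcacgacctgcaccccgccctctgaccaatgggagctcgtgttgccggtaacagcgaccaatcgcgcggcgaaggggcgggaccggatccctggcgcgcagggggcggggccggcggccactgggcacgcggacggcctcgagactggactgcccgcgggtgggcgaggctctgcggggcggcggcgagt
Bhlhe41: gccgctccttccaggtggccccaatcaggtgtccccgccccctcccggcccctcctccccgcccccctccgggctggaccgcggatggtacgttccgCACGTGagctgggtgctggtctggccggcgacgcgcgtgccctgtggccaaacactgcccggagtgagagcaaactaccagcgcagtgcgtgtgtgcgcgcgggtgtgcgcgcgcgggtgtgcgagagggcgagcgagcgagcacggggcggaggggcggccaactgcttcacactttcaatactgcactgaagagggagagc

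Of the clock activators, Arntl (chr7:113207465-113314126 on GRCm38) was measured first, as the gene targeted in LKO. It stood at 29.8, 26.4 and 33.2 CPM in the 3 GF WT livers and at 10.9, 9.72 and 12.7 CPM in the 3 GF LKO livers. The groups did not overlap, and the difference was -1.43 ± 0.26 on the log2 scale (adjusted p = 0.00529). Counts per gene do not separate the deleted exons from the rest, so remaining Arntl counts in LKO do not show that intact RNA was left. Npas2, the partner that can stand in for CLOCK, was at 7.69, 9.78 and 10.2 CPM in WT and at 33.1, 33.3 and 31.7 CPM in LKO (1.82 ± 0.41, adjusted p = 0.0215). The groups were far apart, but this call was lost when any one of the 6 libraries was left out, at adjusted p of 0.0502 to 0.072, and with all 72 libraries in the fit (0.0579). Clock (122, 79.7 and 112 CPM in WT, 114, 115 and 96.7 CPM in LKO) and Rora (170, 105 and 137 CPM in WT, 151, 104 and 122 CPM in LKO) overlapped between genotypes, with adjusted p of 0.940 and 0.787. Arntl2, a scarcely expressed relative of Arntl, was not called either (0.859).

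Both REV-ERB genes fell. Nr1d1 (chr11:98767932-98775333) was at 16.4, 28.8 and 22.1 CPM in WT and at 1.12, 1.33 and 0.790 CPM in LKO, 20.8-fold lower. Its log2 difference of -4.38 ± 0.23 (adjusted p = 1.43e-07) was the fifth in size among the decreases ranked in a later paragraph. Nr1d2 was at 52, 46.9 and 59.8 CPM in WT and 11.8, 9.61 and 8.37 CPM in LKO (-2.42 ± 0.22, adjusted p = 3.05e-05). For both genes the highest LKO library lay far below the lowest WT library.

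The cryptochromes and 2 of the period genes were higher in LKO at this time. Cry1 rose from 19.5, 17.5 and 23 CPM in WT to 80.5, 72.6 and 80.0 CPM in LKO (1.95 ± 0.20, adjusted p = 7.05e-05), and it has the E-box shown above. Cry2 rose less, from 16.9, 28.7 and 26.4 CPM to 43.8, 42.9 and 49.3 CPM (0.90 ± 0.17, adjusted p = 0.00777). Per2 was at 5.47, 4.65 and 5.85 CPM in WT and at 16.9, 12.9 and 13.1 CPM in LKO (1.42 ± 0.21, adjusted p = 0.00133). All 9 LKO values of these 3 genes lay above all WT values of the same gene. Per3, whose promoter holds the 2 D-boxes, was at 0.912, 1.5 and 1.35 CPM in WT and at 2.78, 3.04 and 4.0 CPM in LKO (1.36 ± 0.29, adjusted p = 0.0151). That call was lost without WT replicate 3 (0.05), without LKO replicate 3 (0.0795) and with all 72 libraries (0.0635). Per1 varied widely, at 16.3, 11.9 and 8.60 CPM in WT and 28.3, 11.3 and 17.8 CPM in LKO, and was not called (adjusted p = 0.678).

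The paralogs Bhlhe40 and Bhlhe41 encode DEC1 and DEC2, repressors that bind the E-box, and they differed in opposite directions. Bhlhe40 rose from 33.2, 49.3 and 27.2 CPM in WT to 77.7, 84.0 and 81.6 CPM in LKO (1.14 ± 0.20, adjusted p = 0.0036). Bhlhe41 was near the limit of detection, with 20 counts over the 3 WT libraries and 1 over the 3 LKO libraries, a ratio of 20 with a 95% counting interval of 3.19 to 828. Its call (adjusted p = 0.0243) was lost without WT replicate 1 or 2 or LKO replicate 1 or 2 (0.0506 to 0.106). Nfil3, Csnk1d, Csnk1e and Timeless were not called, with adjusted p of 0.193 to 0.531. In all, 5 of 14 tested repressors were higher and 3 lower.

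Among the D-box factors, Tef rose from 46.8, 41.9 and 39.4 CPM in WT to 89.0, 89.3 and 105 CPM in LKO (1.14 ± 0.18, adjusted p = 0.00186). Dbp was at 0.977, 1.07 and 0.878 CPM in WT and 1.82, 3.26 and 1.42 CPM in LKO. It had no overlap, as 19% of all genes tested, but a wide spread in LKO and an adjusted p of 0.13. Hlf was at 31.1, 33.1 and 38 CPM in WT and at 29.6, 37 and 36.4 CPM in LKO (adjusted p = 0.996). Of the 16 output genes tested, Tef and Wee1, the kinase that holds back entry into mitosis, were higher and Klf9 and Gys2 lower. Wee1 went from 1.30, 1.66 and 0.878 CPM to 4.92, 5.29 and 5.21 CPM, 3.96-fold (1.99 ± 0.24, adjusted p = 0.000184).

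**Figure D1:**
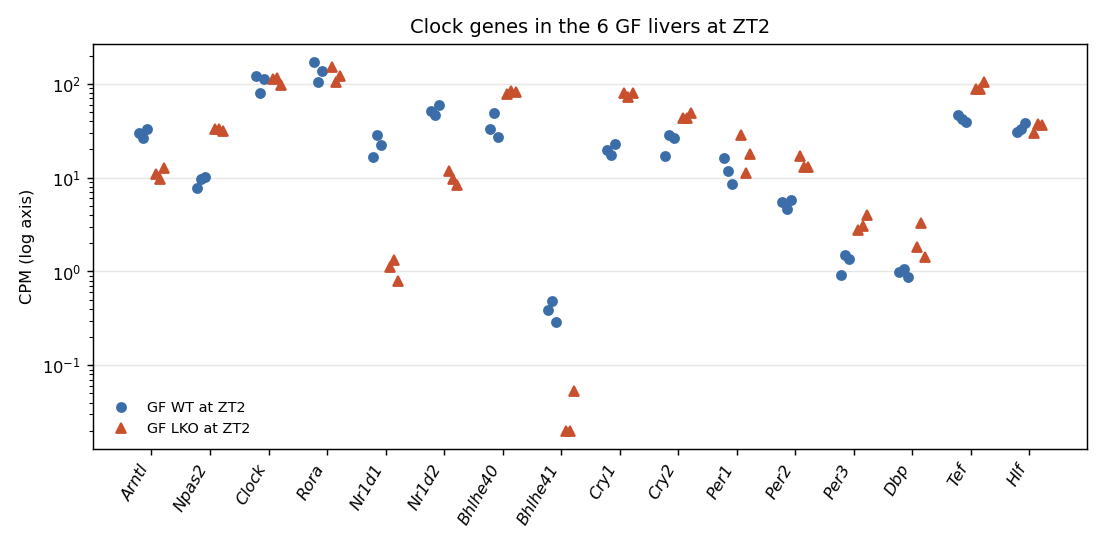
CPM (log axis) of 16 clock genes in each of the 3 GF WT (circles) and 3 GF LKO (triangles) livers at ZT2, 1 point a library, with libraries of 0 counts drawn at 0.02 CPM. Nr1d1 and Nr1d2 sit far lower in LKO, Cry1 and Npas2 higher, and Clock, Rora and Hlf overlap.

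Whether these differences belong to ZT2 or to the whole day was asked by setting the genotype difference at ZT2 against the mean of the differences at ZT6, ZT10, ZT14, ZT18 and ZT22, over the 36 GF libraries. This contrast called 96 of 13806 genes tested (0.695%), 60 positive and 36 negative, and 1211 (8.77%) had an unadjusted p under 0.05. Arntl in WT went from 29.8 ± 3.39 CPM (SD, n = 3) at ZT2 to 0.607 ± 0.319 at ZT10 and 36 ± 3.98 at ZT22, whereas LKO stayed between 8.52 and 11.3 CPM. The log2 difference of Arntl was -1.43 at ZT2, but 1.44 by ZT6 and 3.80 by ZT10, then -0.26 (ZT14), -1.44 (ZT18) and -1.67 (ZT22), so ZT2 lay 1.80 below the mean of the other ZT (-1.80 ± 0.31, adjusted p = 0.00109). Npas2 in WT was at 9.21 ± 1.34 CPM at ZT2 and 11.7 ± 1.01 CPM at ZT22 but at or under 0.816 CPM in the mean at the 4 ZT between, against 20.2 to 33.7 CPM in LKO. Its difference was 1.82 at ZT2 and 1.52 at ZT22, against 6.91, 7.23, 7.13 and 4.74 at ZT6, ZT10, ZT14 and ZT18, and the contrast was -3.68 ± 0.29 (adjusted p = 1.53e-09).

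The differences of Per3, Per2, Tef and Wee1 were positive at ZT2 and negative from ZT6 to ZT18. Tef in WT rose from 42.7 ± 3.80 CPM at ZT2 to 271 ± 9.96 at ZT10 while LKO stayed between 94.4 and 118 CPM, and its difference went from 1.14 at ZT2 to -1.20 at ZT10. The contrast for Tef was 1.5 ± 0.11 (adjusted p = 9.12e-10). Per3 in WT was at 1.25 ± 0.303 CPM at ZT2 and 31.2 ± 2.84 CPM at ZT10, against 3.26 to 5.67 CPM in LKO (contrast 2.99 ± 0.31, adjusted p = 3.02e-07). For Wee1 the WT mean was 1.28 ± 0.390 CPM at ZT2 and 19.7 ± 3.06 CPM at ZT10, against 4.61 to 7.63 CPM in LKO (3.04 ± 0.43, adjusted p = 7.12e-05). These 3 genes thus had their lowest WT mean of the 6 ZT at ZT2. Contrasts were also positive for Per2 (1.70, adjusted p = 0.000122), Dbp (2.62, 0.00232) and Bhlhe40 (1.10, 0.0145), and negative for Nr1d1 (-2.65, 0.0171) and Clock (-0.59, 0.0332).

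Outside the clock loop, Gys2, the liver glycogen synthase, was lower in LKO at every ZT but least so at ZT2. Its WT mean was 129 ± 15.8 CPM at ZT2 and 621 ± 38.4 CPM at ZT10 against 83.2 to 111 CPM in LKO (contrast 1.37 ± 0.12, adjusted p = 2.29e-08). At ZT2 alone its difference was -0.47 ± 0.12 (adjusted p = 0.0434), a call lost without any library but WT replicate 2 (0.102 to 0.189). Clpx, a subunit of a mitochondrial protease, was not called at ZT2. Its levels there were 544 ± 109 CPM in WT and 670 ± 15 CPM in LKO. At ZT10 WT was at 82.6 ± 5.51 and LKO at 762 ± 28.6 CPM (contrast -1.37 ± 0.14, adjusted p = 1.91e-07). Cyp2a5, a cytochrome P450 that oxidises coumarin and nicotine, was 1.43 lower at ZT2 and up to 4.38 lower at ZT10 on the log2 scale (contrast 1.90, adjusted p = 0.000738). Further contrasts passed for Nmrk1, a nicotinamide riboside kinase (1.60, 0.00261), Elovl3, a fatty acid elongase (-1.34, 0.00232), and Mcm6, a subunit of the replicative helicase (1.28, 0.0461). With all 72 libraries in the fit the calls of Bhlhe40, Clock, Cyp2a5, Dbp, Elovl3, Mcm6 and Nr1d1 in this contrast were lost (adjusted p of 0.0851 to 0.188). Leaving out 1 GF library of ZT2 ended the call of Bhlhe40 (without WT replicate 1 or 3), of Clock (any but WT replicate 2), of Mcm6 (any but LKO replicate 2) and of Nr1d1 (WT replicate 2 or any LKO replicate). Replicate 3 of GF WT at ZT6 stood apart, with Arntl at 8.21 CPM where the lowest library of that group had 1.62 CPM. Without it 123 genes were called, and these included 95 of the 96.

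**Figure D2:**
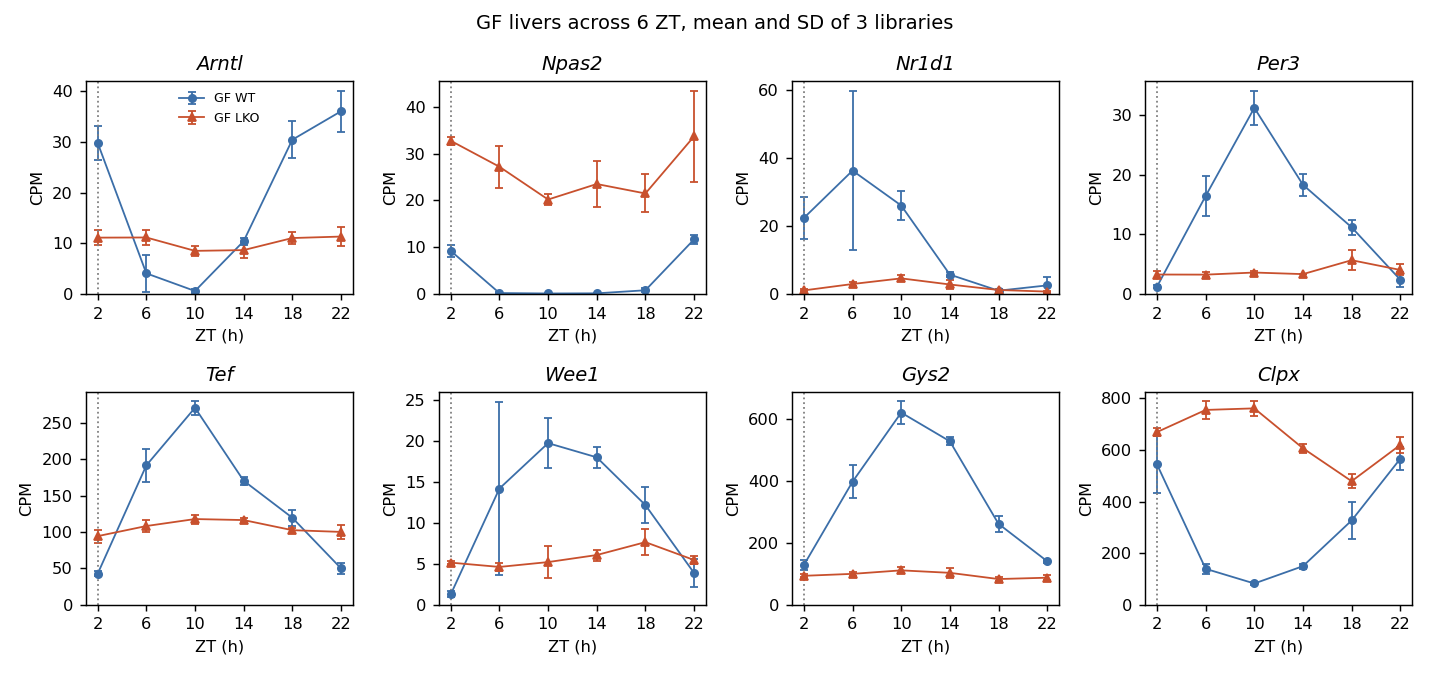
Mean CPM of 8 genes in GF WT (circles) and GF LKO (triangles) livers at 6 ZT, with bars of 1 SD over 3 libraries and a dotted line at ZT2. Per3, Tef and Wee1 in WT are at their lowest mean at ZT2 and lie below LKO there, while Gys2 in WT lies above LKO at each ZT.

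The genes described next are, together with Nr1d1 given above, the 12 largest increases and the 12 largest decreases among called genes with a mean of at least 1 on the log2 CPM scale and no overlap between genotypes. All 24 were called under each of the 13 other settings. The largest increase was that of Cdx4 (chrX:103321398-103330592), a caudal-type homeobox factor known from the embryo, with 1 count over the 3 WT libraries and 276 over the 3 LKO libraries, a ratio of 276 with a counting interval of 49.2 to 11000. In CPM it was at 0, 0.0534 and 0 in WT and at 3.95, 5.61 and 5.11 in LKO. It was thus close to absent in WT and seen in each LKO liver.

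Lpl (chr8:68880491-68907448) encodes lipoprotein lipase, which frees fatty acids from circulating triglyceride and is normally scarce in adult liver. It rose from 111, 61.2 and 57.6 CPM in WT to 888, 875 and 946 CPM in LKO, 11.7-fold (3.55 ± 0.24, adjusted p = 1.62e-06). Sult1e1 (chr5:87575969-87591594), the sulfotransferase that inactivates estrogens, was at 3.84, 6.30 and 2.69 CPM in WT and at 33, 123 and 155 CPM in LKO (4.58 ± 0.57, adjusted p = 0.000275). The LKO libraries of Sult1e1 spread widely, with the lowest of them above every WT library, as the rule that chose the gene required. Cyp2c55, a cytochrome P450 of the 2C family, went from 15.3, 13.7 and 9.95 CPM to 157, 120 and 123 CPM (3.35 ± 0.26, adjusted p = 7.27e-06).

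The other increases were of genes with low levels in WT. Ntrk2, the receptor of brain-derived neurotrophic factor, was at 0.326, 0.588 and 0.176 CPM in WT and at 5.34, 7.63 and 13.5 CPM in LKO. Tox2, an HMG-box factor, was at 0.261, 1.5 and 0.410 CPM against 10.5, 19.3 and 16.5 CPM. Slc34a2, a sodium and phosphate cotransporter, was at 0.847, 1.39 and 1.35 CPM against 9.29, 23.4 and 22.5 CPM. The groups of these 3 genes were apart by more than their own range in WT. Hebp2 (a heme-binding protein), Defb1 (a beta-defensin) and Tuba8 (an alpha-tubulin) rose 17.4-fold, 10.2-fold and 9.86-fold, and the long noncoding RNAs 4930459C07Rik and Gm11454 rose 39.9-fold and 28.8-fold, the latter from 0.180 CPM in WT.

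Among the decreases, Mme (chr3:63241537-63386030) encodes neprilysin, a membrane protease that cleaves peptide hormones. It was at 68.1, 42.1 and 63 CPM in WT and at 1.98, 2.03 and 1.21 CPM in LKO, 33.3-fold lower (-5.06 ± 0.29, adjusted p = 4.1e-07). Nat8 (chr6:85830388-85832082), which acetylates cysteine conjugates on the way to mercapturic acids and has close paralogs beside it, was at 30.6, 25.4 and 27.3 CPM in WT and at 0.641, 0.801 and 0.685 CPM in LKO (-5.29 ± 0.32, adjusted p = 6.51e-07). For both genes the LKO libraries lay close together and far below each WT library, as the plot of the largest changes shows. The noncoding RNA Gm32468 had 325 counts in WT and 2 in LKO, a ratio of 162 with a counting interval of 44.6 to 1350.

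Asns, which makes asparagine and is a target of the amino acid stress response, was at 8.14, 8.71 and 5.44 CPM in WT and at 0.267, 1.23 and 0.316 CPM in LKO (-3.62 ± 0.48, adjusted p = 0.000543). Col27a1, a fibrillar collagen chain, was at 32.3, 15.6 and 20.2 CPM in WT and at 2.83, 2.83 and 2.37 CPM in LKO. Aqp4, a water channel, was at 8.40, 8.71 and 15.7 CPM against 2.14, 1.87 and 0.632 CPM. The lack of overlap between the groups in these genes was part of the rule that chose them. Gpx6 (a glutathione peroxidase) was 21.5-fold lower in LKO, Spsb4 (an adapter of a ubiquitin ligase) 15-fold and Slc16a5 (a monocarboxylate transporter) 7.74-fold. Gm4956, a transcribed pseudogene, was 6.69-fold lower and Gm19522, an antisense transcript, 7.28-fold. Reads were counted without regard to strand, so counts of Gm19522 cannot be told apart from those of a gene on the other strand.

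**Figure D3:**
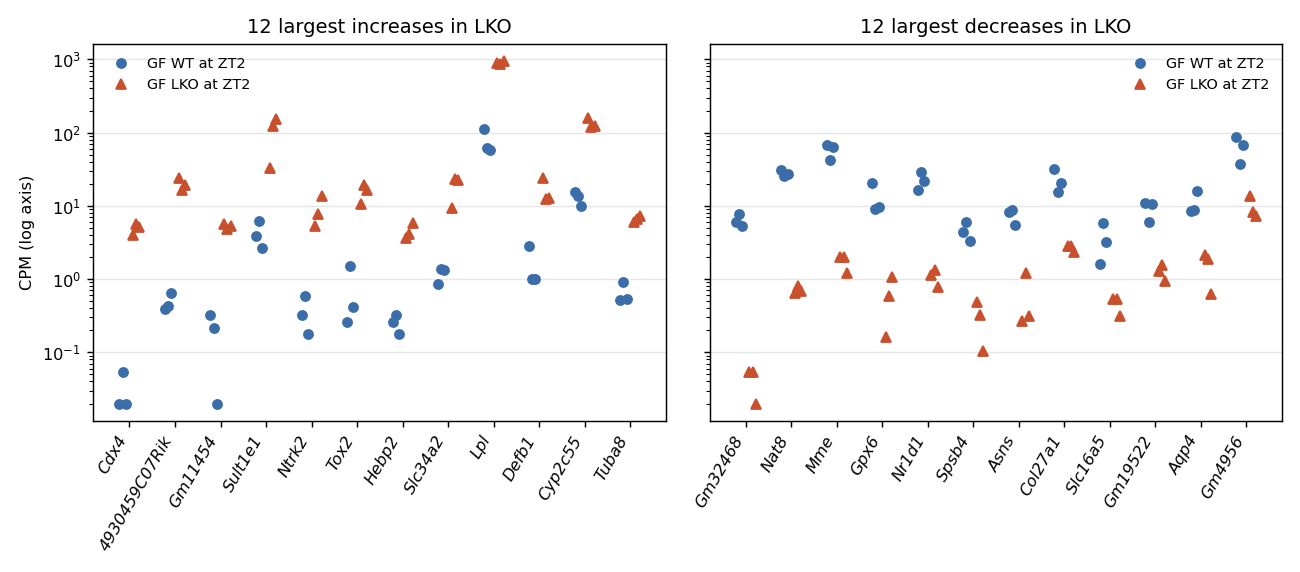
CPM (log axis) of the 12 genes with the largest increases (left) and the 12 with the largest decreases (right) in each of the 3 GF WT (circles) and 3 GF LKO (triangles) livers at ZT2, with libraries of 0 counts drawn at 0.02 CPM. The groups do not overlap for any of the 24 genes, a property that was part of the rule that chose them.

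Lipid genes were next described by list. The liver burns fatty acids in mitochondria and peroxisomes, and PPARα, the fatty acid receptor, drives many of these genes. Of 26 genes of mitochondrial fatty acid oxidation, 25 had a negative difference, with a median of -0.30 on the log2 scale against -0.0098 over all genes, but of these only Slc25a20 and Hadh were called lower and none higher (7.69% of the list, against 4.21% of all genes). Slc25a20, the carrier of acylcarnitines into mitochondria, fell from 133, 136 and 147 CPM to 99.7, 93.1 and 89.5 CPM (-0.57 ± 0.09, adjusted p = 0.00191). Cpt1a, the gatekeeper enzyme of this pathway, was at 317, 352 and 340 CPM in WT and 247, 220 and 244 CPM in LKO without being called (adjusted p = 0.109), and so was Ppara itself, at 70.7, 64.7 and 75.7 CPM against 42.7, 45.2 and 41.7 CPM (0.0711). Neither gene overlapped between the groups, which was so for 19% of all genes tested and is no further test. Hadh (-0.35, adjusted p = 0.0424) lost its call without any library but WT replicate 2 (0.0621 to 0.182) and with all 72 libraries (0.181).

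Of 33 PPARα targets tested, 28 had a negative difference (median -0.56), and 7 were called lower and 2 higher (27.3%). Aldh3a2, the fatty aldehyde dehydrogenase, fell from 374, 361 and 478 CPM to 142, 136 and 115 CPM (-1.63 ± 0.14, adjusted p = 1.9e-05), with every LKO library below every WT library. The 2 that rose were Lpl, described above, and Ppard, the receptor PPARδ, from 10.0, 11.5 and 10.7 CPM to 38.7, 25.6 and 29.3 CPM (1.52 ± 0.22, adjusted p = 0.00116). Fabp1, the abundant fatty acid binding protein of hepatocytes, was at 6357, 5381 and 5718 CPM in WT and at 4169, 2513 and 2789 CPM in LKO (-0.89 ± 0.19, adjusted p = 0.014), a call lost without WT replicate 1 or 3 or LKO replicate 2 or 3 (0.05 to 0.0856). The calls of Cyp4a10, Cyp4a12a, Acot3, Vnn3 and Slc27a1 were lost without 3 to 5 of the 6 libraries, at adjusted p of 0.0537 to 0.185. Cyp4a10 in LKO ranged from 61.8 to 347 CPM against 577 to 951 CPM in WT.

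Of 39 peroxisomal genes, 7 were lower and 3 higher (25.6%), with a median of -0.098. The thiolases Acaa1a (-0.78 ± 0.10, adjusted p = 0.000311) and Acaa1b (-1.30 ± 0.16, adjusted p = 0.000291) fell, though they are near-identical copies whose reads may be split between them. Pex11a, which helps peroxisomes divide, was at 69.5 to 73.5 CPM in WT and 40.3 to 50.3 CPM in LKO (-0.70, adjusted p = 0.00491), and Agxt, which detoxifies glyoxylate, at 438 to 459 CPM against 632 to 711 CPM (0.61, adjusted p = 0.00494). Both calls were lost with all 72 libraries (0.107 and 0.116). Further calls, lower for Ehhadh, Abcd2 and Decr2 and higher for Acox3 and Scp2, were each lost without 1 to 3 libraries (0.0554 to 0.163).

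Among 26 genes of triglyceride synthesis and lipases, 5 were lower and 3 higher (30.8%). The carboxylesterase Ces1d, a triglyceride hydrolase, fell from 1228, 811 and 1142 CPM to 267, 228 and 262 CPM (-2.08 ± 0.21, adjusted p = 5.44e-05), and its neighbours Ces1f (-1.0 ± 0.17) and Ces1g (-0.98 ± 0.14) fell too. The 3 are close paralogs, so reads they share were not counted. Hepatic lipase, Lipc, rose from 275, 210 and 249 CPM to 415, 395 and 407 CPM (0.72 ± 0.10, adjusted p = 0.00107), while endothelial lipase, Lipg, fell from 5.21, 4.33 and 5.44 CPM to 1.55, 1.01 and 0.737 CPM (-2.19 ± 0.25, adjusted p = 0.000127). All 5 of these lipase genes separated the 2 genotypes without overlap, as 19% of all genes tested did. They were named for being called in these same libraries, so this is no further support. Apoa4, an apolipoprotein of triglyceride-rich particles, rose (1.30 ± 0.22, adjusted p = 0.0036), whereas Agpat5 (higher) and Gpd1 (lower) lost their calls without 2 and 5 libraries (0.0596 to 0.147). Of 24 lipogenic genes, Scd2, a stearoyl-CoA desaturase, rose from 5.86, 7.43 and 4.56 CPM to 36.3, 19.97 and 27.4 CPM (2.21 ± 0.29, adjusted p = 0.000489). Me1, the malic enzyme that supplies NADPH, fell from 120, 160 and 151 CPM to 83.4, 61.6 and 33.8 CPM (-1.28 ± 0.25, adjusted p = 0.00839), and no other member of that list was called. Among 9 ketone body genes Slc16a7, a monocarboxylate transporter, fell from 74.5, 62.1 and 66.1 CPM to 22.1, 14.5 and 17.2 CPM (-1.93 ± 0.20, adjusted p = 5.78e-05). Slc16a6 (0.87, adjusted p = 0.0254) lost its call without 4 of the 6 libraries (0.0666 to 0.125).

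**Figure D4:**
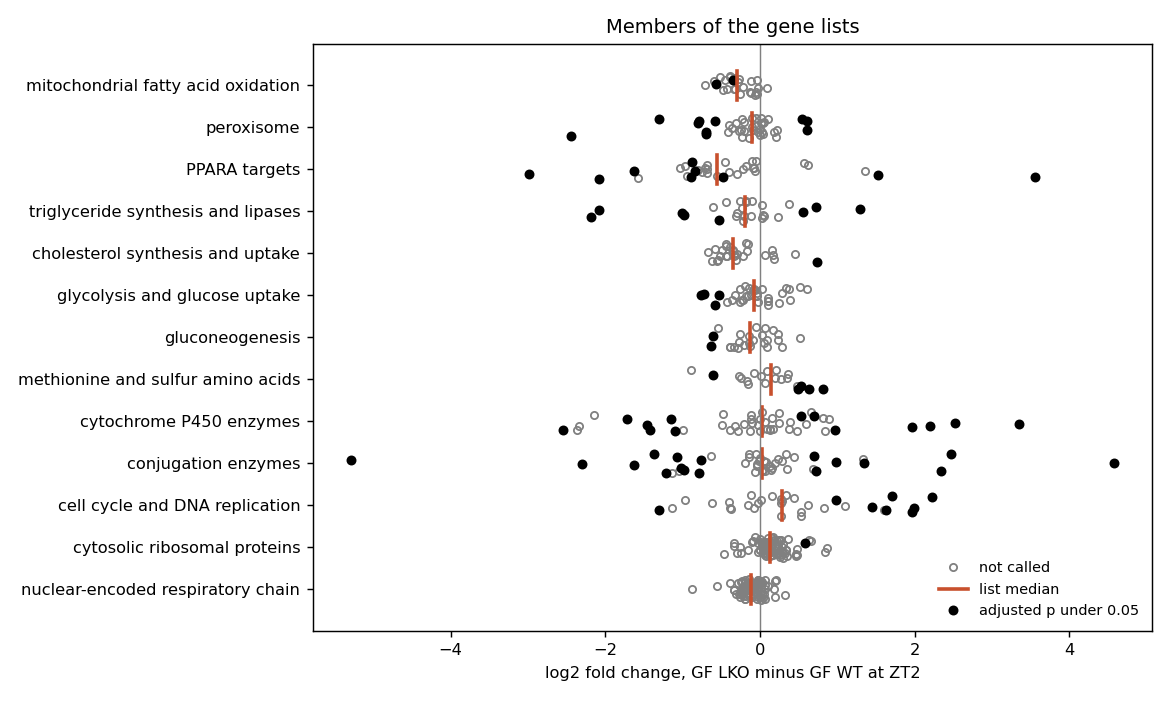
Log2 fold change, GF LKO minus GF WT at ZT2, of each tested member of the gene lists, with called members filled, others open and the median of a list as a bar. The members of mitochondrial fatty acid oxidation lie left of 0 in 25 of 26 cases with 2 of them called, and 7 of 32 cell cycle genes are called to the right.

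Cholesterol is made from acetyl-CoA through HMG-CoA and squalene, and SREBP2 switches the enzymes on together when the cell's cholesterol is low. GF mice were rederived and kept in isolators and SPF mice were bred in a vivarium, so microbes, colony and housing cannot be told apart here. Whether the genotype difference at ZT2 differs between GF and SPF mice was tested as the GF difference minus the SPF difference, in the same 12 libraries. It called 3 of 13596 genes (0.0221%), all negative, with 1117 (8.22%) at an unadjusted p under 0.05, and 2 of the 3 were cholesterol genes. DESeq2's Wald test called 74 in the same contrast. Hmgcs1 (chr13:119690379-119708260), the synthase of HMG-CoA, was at 783, 838 and 984 CPM in GF WT and 637, 550 and 522 CPM in GF LKO. In SPF mice the order was the other way round, with 234, 218 and 166 CPM in WT and 394, 706 and 543 CPM in LKO. The difference of the genotype effects was -2.03 ± 0.27 (adjusted p = 0.0394). Fdps (chr3:89093588-89101959), which makes farnesyl diphosphate, was at 11.1, 15.4 and 18.0 CPM in GF WT, 12, 9.88 and 8.90 CPM in GF LKO, 3.52, 4.91 and 3.56 CPM in SPF WT and 8.68, 11.9 and 10.8 CPM in SPF LKO (-1.94 ± 0.28, adjusted p = 0.0434). Fdps has near-identical pseudogene copies in the genome, and reads that aligned to several places were not counted. In both genes the SPF WT libraries stood below all other 9 libraries.

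Over the cholesterol list, 24 of 28 members had a negative difference between GF and SPF, with a median of -1.11 against 0.0057 over all genes, and 19 negative and 0 positive members had an unadjusted p under 0.05. All members were measured in the same few livers of each group and can shift together, so these tallies are not independent tests. The SPF LKO replicates stood, in order, at 394, 706 and 543 CPM for Hmgcs1 and at 49, 101.5 and 62.4 CPM for Sqle. Not every member kept that order, as Idi1 was at 6.43, 11.88 and 12.69 CPM. In GF mice alone 22 of the 28 had a negative genotype difference (median -0.34) and Abcg5, a sterol exporter, was the 1 member called, higher in LKO (3.57%; 0.73, adjusted p = 0.0376, lost without 4 libraries at 0.114 to 0.152). In SPF mice 14 members were called, all higher in LKO (median 0.74), where 6.89% of all genes were called. Sqle, squalene epoxidase, had means of 108 CPM in GF WT, 67.9 in GF LKO, 23.9 in SPF WT and 71 in SPF LKO (-2.25, adjusted p = 0.0705). For Hmgcs1 and Sqle the means of the 2 LKO groups lay close to each other, while the WT means lay several-fold apart.

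The third gene called was Lrtm1 (chr14:29018208-29033645), a membrane protein with leucine-rich repeats. It was at 33.9, 42.6 and 37.2 CPM in GF WT, 51.9, 88.4 and 63.8 CPM in GF LKO, 6.13, 3.37 and 4.47 CPM in SPF WT and 60.8, 35 and 42.8 CPM in SPF LKO, so that the genotype difference was 0.83 in GF and 3.31 in SPF mice (-2.48 ± 0.35, adjusted p = 0.0394). None of the 3 calls held in all of 18 other settings. They were lost with all 72 libraries (0.362 to 0.423), and Hmgcs1 was lost without GF WT replicate 2 or 3, any GF LKO replicate, or replicate 3 of SPF WT or SPF LKO (0.0508 to 0.163). Lrtm1 was lost without the same libraries except GF LKO replicate 2 (0.0534 to 0.163), and Fdps without those for Hmgcs1 and also without SPF WT replicate 1 or SPF LKO replicate 2 (0.0534 to 0.185).

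**Figure D5:**
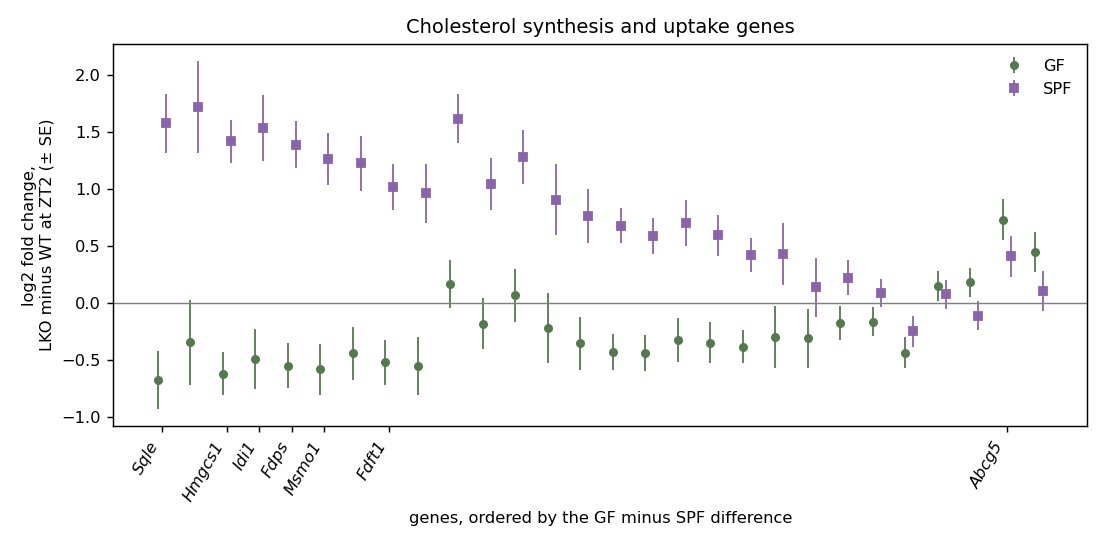
Log2 fold change, LKO minus WT at ZT2 with bars of 1 SE, of the 28 tested cholesterol genes in GF (circles) and SPF (squares) mice, ordered by the GF minus SPF difference, with some of them named on the axis. In 24 of the 28 genes the GF value lies below the SPF value, and 2 of these differences, those of Hmgcs1 and Fdps, were called.

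Of 22 genes of bile acid synthesis and transport, Cyp7b1, the oxysterol hydroxylase of the alternative pathway, rose from 619, 380 and 417 CPM to 1251, 1532 and 1613 CPM (1.63 ± 0.22, adjusted p = 0.000661). Cyp2c70, which makes muricholic acids in the mouse, rose from 1726, 1179 and 1153 CPM to 2931, 2990 and 2840 CPM (1.10 ± 0.17, adjusted p = 0.0019). Both rose in all 3 LKO libraries above the highest WT library. Klb, the FGF coreceptor β-klotho, was lower (-0.68, adjusted p = 0.014), a call lost without WT replicate 3 or LKO replicate 2 or 3 (0.0652 to 0.07). Nr0b2, the bile acid responsive repressor SHP, varied from 16.3 to 67.3 CPM in WT and was not called (adjusted p = 0.159).

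In carbohydrate metabolism the calls were few, and only that of Slc2a2 held in every setting. Of 34 genes of glycolysis and glucose uptake 4 were lower and 0 higher (11.8%). Slc2a2, the glucose transporter GLUT2, fell from 334, 376 and 405 CPM to 231, 252 and 194 CPM (-0.73 ± 0.13, adjusted p = 0.00599). Aldoc, Khk and Pdk1 (-0.77, -0.53 and -0.58) were lost without 5, 6 and 5 of the 6 libraries (0.0504 to 0.187). Of 25 gluconeogenic genes, Gpt2 (-0.60, adjusted p = 0.0174) and Mpc1 (-0.63, adjusted p = 0.0299) were lower (8%, against 4.21% of all genes). These calls were lost without 3 and 4 libraries (0.0642 to 0.152). Pck1, the enzyme that commits carbon to glucose, was at 3427 ± 436 CPM in WT and 2375 ± 671 CPM in LKO (adjusted p = 0.47), Fbp1 at 762 ± 123 and 813 ± 29.9 CPM (0.818), Pck2 at 1.29 ± 0.367 and 1.88 ± 0.512 CPM (0.484), and the glycolytic enolase Eno1 at 86.1 ± 7.60 and 69.3 ± 9.90 CPM (SD, n = 3; 0.349). In the glycogen list of 20 genes, Gyg and Phkb were higher and Gys2 lower (15%), each lost without 5 libraries (0.0929 to 0.189).

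Of 43 genes of amino acid catabolism and the urea cycle, 3 were higher and 3 lower (14.0%). Prodh2, which oxidises hydroxyproline, fell from 155, 167 and 152 CPM to 98.1, 68.6 and 80.2 CPM (-0.95 ± 0.14, adjusted p = 0.00116), and Asns fell as given above. Asl, Acmsd and Hgd lost their calls without 3, 4 and 5 libraries (0.0692 to 0.166). In the methionine cycle, which recycles homocysteine, 4 of 20 genes were higher and 1 lower (25%). Mtrr, which reactivates methionine synthase, rose from 4.82, 4.86 and 4.04 CPM to 8.81, 7.37 and 8.01 CPM (0.81 ± 0.15, adjusted p = 0.00617). Bhmt, Bhmt2 and Cbs were 1.45-fold, 1.41-fold and 1.55-fold higher, with calls lost without 5, 2 and 5 libraries (0.057 to 0.136). Ahcy, which clears S-adenosylhomocysteine, was lower (-0.60 ± 0.11, adjusted p = 0.00569), a call lost with all 72 libraries (0.0599).

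The cytochrome P450 and conjugation lists held the highest numbers of calls among the lists. Of 47 cytochrome P450 genes, 7 were higher and 6 lower (27.7%). Besides Cyp2c55, Cyp2c29 rose from 3283, 3006 and 3820 CPM to 5641, 5623 and 5189 CPM (0.69 ± 0.13) and Cyp2c68 from 272, 176 and 220 CPM to 520, 441 and 360 CPM (0.97 ± 0.18). Cyp17a1, the 17-hydroxylase of steroids, fell from 12.3, 10.5 and 12.6 CPM to 3.10, 1.18 and 1.84 CPM (-2.54 ± 0.30, adjusted p = 0.000156), and Cyp2d40 fell 2.13-fold. The Cyp2c genes are close paralogs, so their counts are less certain than those of single-copy genes. Cyp3a11, the chief mouse CYP3A enzyme, was at 1115, 530 and 653 CPM in WT and 261, 347 and 231 CPM in LKO (-1.46 ± 0.24, adjusted p = 0.00229). That call was lost with all 72 libraries (0.0852), as were those of Cyp2c40 and Cyp2c69 (0.0537 and 0.171). Cyp2a5, Cyp2b10, Cyp2c38, Cyp2j6 and Cyp26a1 were called too, and each was lost without 1 to 5 of the libraries (0.0515 to 0.156). Of 11 xenobiotic receptors and cofactors 0 were called by edgeR and 1 by DESeq2, while 10 had a negative difference (median -0.25) and Ppara, Arnt and Por had an unadjusted p under 0.05.

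Conjugation enzymes attach sulfate, glucuronate, glutathione or acetyl groups to drugs and hormones, and 17 of 45 were called, 7 higher and 10 lower (37.8%). Of the glutathione transferases called, those named Gstm were higher. Gstm2 went from 47.2, 68.9 and 51.6 CPM to 303, 299 and 253 CPM (2.34 ± 0.22, adjusted p = 3.97e-05), Gstm3 from 32.8, 55.6 and 43.5 CPM to 256, 220 and 261 CPM (2.47 ± 0.30, adjusted p = 0.000226) and Gstm6 2.53-fold. Gstm7 rose as well (0.72 ± 0.13), and Gstm1 (0.98 ± 0.20, adjusted p = 0.0139) lost its call without LKO replicate 3 (0.0735). Gstt1 fell from 420, 343 and 381 CPM to 209, 187 and 170 CPM (-1.03 ± 0.13, adjusted p = 0.000242), Gstt3 by 1.21 and Gsta3 by 0.98 on the log2 scale, while Gsta4 and Mgst3 lost their calls without 5 and 1 libraries (0.0511 to 0.164). The Gstm genes form a cluster of close paralogs, so part of their reads may be missing or misplaced.

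Sult1a1, a phenol sulfotransferase, fell from 564, 472 and 447 CPM to 303, 194 and 210 CPM (-1.08 ± 0.17, adjusted p = 0.0018), the opposite direction of Sult1e1. Ugt1a9, a glucuronosyltransferase, fell from 13.8, 17.9 and 21 CPM to 5.34, 2.78 and 2.69 CPM (-2.30 ± 0.37, adjusted p = 0.00224). Ugt1a1 and Ugt1a5 were lower too, but the Ugt1a genes share exons, whose reads were not counted, and these calls were lost without 4 libraries (Ugt1a1, 0.0978 to 0.183) or with all 72 (Ugt1a5, 0.0619). Of 24 genes of NRF2 and glutathione defence 0 were called by edgeR and 0 by DESeq2, with 4 of them (Sod1, Gpx1, Srxn1 and Prdx1) at unadjusted p of 0.0179 to 0.0433.

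Among genes known to differ between male and female liver, 9 of 20 tested female-biased genes were called, 4 higher and 5 lower in LKO (45%, median -0.65). Those that rose were Sult1e1, Cyp2c40, Cyp2c69 and Prlr, and those that fell Cyp17a1, Cyp4a10, Acot3, Abcd2 and Slc22a26. Prlr, the prolactin receptor, went from 137, 181 and 168 CPM to 366, 316 and 304 CPM (1.01 ± 0.19, adjusted p = 0.00584). The calls for Cyp17a1, Sult1e1 and Prlr held in every setting, and that for Slc22a26 was lost with all 72 libraries (0.0599). Of 29 male-biased genes, Cyp7b1 and Nudt7, a peroxisomal hydrolase of coenzyme A, were higher and Cyp4a12a lower. Nudt7 rose from 888, 757 and 714 CPM to 1462, 1363 and 1242 CPM (0.78 ± 0.13, adjusted p = 0.00355). Of 20 genes of the growth hormone and IGF axis, Prlr was the 1 called by edgeR. DESeq2 called 4 of them, and 5 had an unadjusted p under 0.05 by edgeR.

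The cell cycle and DNA replication list had 7 of 32 genes higher and 1 lower (25%, median 0.28). Those that rose in every setting were 3 subunits of the helicase that opens DNA for replication, cyclin E2 and Wee1. Mcm6 rose from 3.32, 3.47 and 2.57 CPM to 15.4, 10.8 and 17.6 CPM (2.22 ± 0.22, adjusted p = 5.78e-05), Mcm4 from 3.13, 3.21 and 2.98 CPM to 9.62, 8.65 and 7.27 CPM (1.44 ± 0.18, adjusted p = 0.000264) and Mcm5 from 0.847, 2.73 and 0.878 CPM to 6.36, 4.97 and 6.53 CPM (1.96 ± 0.39, adjusted p = 0.00946). Ccne2, cyclin E2, rose from 2.54, 1.82 and 2.17 CPM to 8.17, 6.83 and 6.37 CPM (1.71 ± 0.23, adjusted p = 0.000661). Together with Wee1 these separated the genotypes in every library. Mcm2 and Mcm3 were higher too, with calls lost without 2 and 5 libraries (0.0574 to 0.132). Mcm10, another replication factor, was lower, at 91.0, 71.5 and 64.8 CPM in WT and 25.7, 37.5 and 29.1 CPM in LKO (-1.31 ± 0.22, adjusted p = 0.00292), a call lost with all 72 libraries (0.0845). None of the mitotic genes on the list, such as Mki67 and Top2a, was called.

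Alb, which is also on the list of periportal genes, fell from 135500, 100500 and 94080 CPM to 40610, 31600 and 32020 CPM (-1.67 ± 0.23, adjusted p = 0.000661). The other 11 hepatocyte markers were not called by edgeR (DESeq2 called 2 of the 12). Of 28 acute phase genes, Serpina3m fell (-1.67 ± 0.24, adjusted p = 0.00102), and Itih3 and Cp were higher with calls lost without 5 and 3 libraries (0.0522 to 0.108). Trib3, a pseudokinase gene switched on by the stress factor ATF4, as Asns is, fell from 9.38, 11.3 and 10.3 CPM to 2.03, 1.71 and 3.48 CPM (-2.11 ± 0.25, adjusted p = 0.000161). Of the 27 endoplasmic reticulum stress genes tested, Dnajb9 was called too (-0.55, adjusted p = 0.0242), and lost without 5 libraries (0.0615 to 0.113). Enho, which encodes adropin, was at 26.2, 23.7 and 14.2 CPM in WT and 6.25, 6.14 and 9.90 CPM in LKO (-1.53 ± 0.32, adjusted p = 0.0127), a call lost without LKO replicate 1 or 2 (0.0565 to 0.0683).

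Several lists held few calls or none by edgeR, which called 4.21% of all genes and gave 15.5% an unadjusted p under 0.05. Of 26 heat shock chaperones 0 were called by edgeR and 1 by DESeq2, with 2 at an unadjusted p under 0.05. Of 79 nuclear-encoded respiratory chain genes 0 were called by either tool, with 6 at an unadjusted p under 0.05, and of 5 cold-inducible RNA-binding proteins 0 were called by either and 0 had such a p. Of 7 genes of the mitochondrial chromosome, mt-Co1, mt-Cytb and mt-Nd4 were lower (median of the list -0.57), lost without any library but WT replicate 2 (0.0852 to 0.169). Of 83 ribosomal protein genes 71 had a positive difference (median 0.13), and Rpl27a, at 15.4 to 21.4 CPM in WT and 24.6 to 28.6 CPM in LKO, was the 1 called, lost without 5 libraries (0.0645 to 0.15). Of 39 interferon-stimulated genes 28 were negative and Gbp3 was called, lower (-0.86, adjusted p = 0.00807; 0.268 with all 72 libraries). Of the 18 glucocorticoid-responsive genes Klf9 was called (-0.67, adjusted p = 0.0375), and lost without 4 libraries (0.0697 to 0.182). The periportal list had 0 higher and 3 lower of 20 (15%), of which Alb held in every setting, while Asl and Hsd17b13 were each lost without 3 libraries (0.0703 to 0.128). The pericentral list had 2 higher and 1 lower of 20 (15%), and none held in every setting. DESeq2 called 7 of these 20, and 11 had an unadjusted p under 0.05 by edgeR. Lect2 was lost without 5 libraries (0.0817 to 0.196) and with all 72 (0.238), Gulo without WT replicate 3 or LKO replicate 2 (0.0541 to 0.0559), and Cyp2a5 without WT replicate 3 (0.0706) and with all 72 (0.142). Heme and iron genes had 2 higher and 1 lower of 27 (11.1%), and none held in every setting, with Uros lost without 5 libraries (0.0932 to 0.185), Cp as given above and Blvrb with all 72 (0.133). NAD and coenzyme A synthesis had 2 higher of 23 (8.7%), Nudt7, which held, and Nmnat3, lost without 4 libraries (0.0546 to 0.0914). The edgeR calls among 25 liver-secreted hormones were those of Lect2 and Enho (8.0%), both lost as given. DESeq2 called 7 of the 25, and 11 had an unadjusted p under 0.05 by edgeR.

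Markers of other cell types were looked at by list. At the 4.21% called over all genes, lists of 4 to 12 markers may hold no call. By edgeR and by DESeq2, 0 were called of 12 Kupffer cell, 12 sinusoidal endothelial, 12 stellate, 7 cholangiocyte, 8 lymphoid, 4 neutrophil and 7 erythroid markers tested, and 1 of them, a cholangiocyte marker, had an unadjusted p under 0.05. The 4 neutrophil markers all had a positive difference (median 0.48). The summed level of the Kupffer list ranged from 412 to 503 CPM in WT and from 399 to 485 CPM in LKO, that of the cholangiocyte list from 40.6 to 68.5 CPM and from 66.1 to 115 CPM, and that of the neutrophil list from 1.75 to 3.53 CPM and from 2.35 to 5.74 CPM. Of 2 acinar markers tested, Cela1, an elastase also made outside the pancreas, rose from 72.8, 57.9 and 62.1 CPM to 130, 110 and 137 CPM (0.95 ± 0.14, adjusted p = 0.00144), and 8 of the 10 acinar markers did not pass the filter on low counts. Of 4 adipocyte markers tested, Cfd, the complement factor adipsin, had 36 counts over the WT libraries and 1 over the LKO libraries, a ratio of 35.9 with a counting interval of 6.05 to 1460 (adjusted p = 0.00243, and 0.168 with all 72 libraries). The part of other cell types in the results was not tested.

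The genes called at ZT2 in GF mice were last looked up in the other comparisons, none of which compares the same libraries. The GF and SPF differences at ZT2 came from the same fit with a shared estimate of each gene's spread, so their calls are not independent. In SPF mice at ZT2, 547 of the 572 had the same direction and 339 were called in it, 59.3% of the 572 and 36.2% of the 937 called there (6.89% of genes), while 1 was called in the opposite direction. In GF mice, 404 were called in the same direction at ZT6, where 11.7% of all genes were called. The number was 397 for ZT10 (13.1%), 260 for ZT14 (6.10%), 311 for ZT18 (8.43%) and 331 for ZT22 (4.44%). The share of the 572 was thus 70.6%, 69.4%, 45.5%, 54.4% and 57.9%, and the share of the genes called at those times 25.5%, 22.5%, 32%, 27.7% and 54.9%. Each ZT was fitted with its SPF libraries, and at ZT14 and ZT18 the lowest SPF LKO library had Lpl at 20.7 and 34.1 CPM where the highest had 906 and 781 CPM. The part of these libraries in the lower counts was not tested. In GF mice 175 of the 572 were called in the same direction at all 5 other ZT, and 73 at none of them.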

How the data were processed

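Liver RNA libraries were prepared with a stranded mRNA kit and sequenced as single-end reads. The authors aligned the reads with STAR 2.6.1b to mm10 and deposited counts of reads per gene, unnormalized, made by featureCounts 2.0.0 on Ensembl GRCm38 exons. Strand was ignored in the counting, so overlapping genes on opposite strands are uncertain, and multi-mapped reads were dropped, as were reads in more than 1 gene, which lowers near-identical copies. Groups came from the labels.

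From these counts, TMM factors, a filter on low counts (filterByExpr) and the quasi-likelihood test of edgeR 4.0.16 (R 4.3.3) were applied to the 12 libraries of ZT2 with 4 group means, and to the 36 GF libraries for the contrast of ZT2 with the other 5 ZT. P-values were adjusted by Benjamini-Hochberg over all genes tested, at a threshold of 0.05. CPM levels used TMM factors over all 72 libraries. DESeq2 1.42.0, other scalings, filters and sets of libraries were alternatives. Counting intervals are exact 95% intervals and cover counting error only, and a group with 3 counts or fewer was given by its counts. Motifs were searched in the RefSeq promoter table. The scripts were first tested on simulated counts with known changes.

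Genes were named by rule: the tested clock genes with Dbp, Tef and Hlf, the 12 largest increases and decreases, up to 5 members of each list and 5 genes of each difference test by smallest p, and 8 genes of fatty acid and glucose metabolism. Further members of the lists, and the markers Alb, Cela1 and Cfd, were named after their values were seen. Some genes that the rule names are not reported here, and counts over lists include them. The comparison and the lists were chosen with earlier results of these data known.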

Additional observations from a re-analysis of the deposited data

Results flagged for a closer look

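In 3 genes the genotype difference at ZT2 was lower in GF than in SPF mice by the test of the difference itself, by -2.03 in Hmgcs1, -1.94 in Fdps and -2.48 in Lrtm1 on the log2 scale. None of these 3 calls held in all of 18 other settings. In 16 named genes the genotype difference in GF mice at ZT2 differed from the mean of the other 5 ZT. It was higher at ZT2 in Per2 (1.70), Per3 (2.99), Bhlhe40 (1.10), Dbp (2.62), Tef (1.5), Wee1 (3.04), Gys2 (1.37), Nmrk1 (1.60), Mcm6 (1.28) and Cyp2a5 (1.90). It was lower at ZT2 in Npas2 (-3.68), Clock (-0.59), Arntl (-1.80), Nr1d1 (-2.65), Elovl3 (-1.34) and Clpx (-1.37). The calls of Bhlhe40, Clock, Cyp2a5, Dbp, Elovl3, Mcm6 and Nr1d1 were lost with all 72 libraries, as given above. No test for single outlying libraries was run, since each group held 3.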

How the results depend on the processing

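The 3 livers a group limited the precision. The GF difference at ZT2 gave 572 genes (54.4% higher), 303 with a log2 difference of at least 1, 1104 without a filter on low counts (49.5% higher, with 27493 genes tested), and 323 to 544 without 1 GF library, the lowest without LKO replicate 3 (323), WT replicate 3 (341) and LKO replicate 2 (341). With all 72 libraries 529 were called, 63.9% higher, of which 412 were among the 572. With the 6 GF libraries alone 414 were called, 56.5% higher, of which 380 were among the 572. The GF and SPF difference gave 3 genes, 423 without the filter, 74 by DESeq2's Wald test, 1 with all 72 libraries, and 0 to 20 without 1 library, where 20 were called without SPF WT replicate 2, 14 without SPF LKO replicate 1 and 0 without GF WT replicate 2 or 3, GF LKO replicate 1 or 3, or replicate 3 of either SPF group. The contrast of ZT2 with the other ZT gave 96 genes, 53 with a log2 difference of at least 1, 393 without the filter (46.8% higher against 62.5%), 166 by DESeq2's Wald test, 39 with all 72 libraries, and 61 to 123 without 1 library, 61 without GF LKO replicate 3. The cause was not tested. Directions turned in genes that were not called: Rora without WT replicate 1 (0.067, range -0.30 to 0.067), Hlf without WT replicates 1 and 2 or LKO replicates 2 and 3 in turn (-0.038, -0.018, -0.060 and -0.045, range -0.060 to 0.10), Fbp1 without WT replicate 1 (-0.020, range -0.020 to 0.16), Clock without WT replicate 2 (-0.12) or LKO replicate 2 (-0.0082, range -0.12 to 0.19) and Arntl2 without WT replicate 2 (-0.075, range -0.075 to 0.56). The libraries shared only a replicate number, with no pairing in the labels, and deviations of same-numbered livers correlated at -0.202 to 0.306. With the replicate number as a block, 572 genes were called for the GF difference (515 of them the same), 7 for the GF and SPF difference and 86 for the contrast of ZT2, and Mcm6 lost its call there (adjusted p = 0.0514). The other settings run moved no count of calls by more than 1.5 times.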
